A study of Mus musculus with 9 samples.

Results

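The genes examined here encode the interleukin-4 (IL-4) receptor, the kinases and transcription factor behind it, its feedback inhibitors, and an enzyme that IL-4 induces. They are 10 genes in all: Il4ra, Il2rg, Il13ra1, Jak1, Jak3, Stat6, Socs1, Socs3, Cish and Il4i1. They were found in a table of read counts for 27179 genes by matching its NCBI Gene identifiers to these symbols, and all 10 were present. RNA immunoprecipitation sequencing (RIP-seq), in which a protein is precipitated and the RNA bound to it is sequenced, had been carried out on splenic B cells of wild-type mice. The cells were taken as the CD43- fraction and activated for 72 h. Per the labels, all groups received 5 ug/mL CD40L, 10 ug/mL of an antibody to IgM and 20 ng/mL IL-4, while the study's methods name an antibody to CD40 in place of the ligand. The 3 groups of 3 libraries each were RNA precipitated by an antibody to the phosphorylated form of UPF1 (p-UPF1), RNA precipitated with normal rabbit IgG, and RNA of the lysate (input). IL-4 was thus present in every group, no unstimulated cells and no cells lacking UPF1 were compared, and the comparisons concern the recovery of RNA, not the response to IL-4. Splenic cells were used in the study in place of early B cell progenitors. Per the study's methods the animals were males and females of matched age, from 8 to 16 weeks. The methods speak of the points in the study's graphs as independent biological replicates, but neither they nor the labels say whether the 3 libraries of a group came from separate animals or cultures, so the tests measure the spread between these libraries, which may be technical.

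IL-4 binds the receptor chain IL-4Rα, which pairs with the common γ chain in lymphocytes (the type I receptor) or with IL-13Rα1, mainly in other cells (the type II receptor). JAK1 and JAK3, bound to the chains, phosphorylate the receptor and then STAT6, which enters the nucleus and drives class switching to IgG1 and IgE and the expression of MHC class II and CD23 in B cells. The signal induces its own inhibitors of the SOCS family. UPF1 is an RNA helicase of nonsense-mediated mRNA decay (NMD), the pathway that degrades mRNAs whose stop codon lies upstream of an exon junction or of a long 3′ UTR, and it is phosphorylated by SMG1 when decay starts.

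Total counts were between 17372510 and 24945286 per library, lowest in the IgG group, and 13129 genes had enough counts to be tested. Levels are given in CPM, the counts scaled to a common library size with TMM factors, which fix the bulk of the genes as the reference. The submitters' processing notes name no step that merges reads amplified from the same molecule, so counting error may be understated. B cell markers were abundant, with mean levels in the input libraries of 5977 CPM for Cd74, 1229 CPM for Cd79b and 725 CPM for Ms4a1. T cells, which carry the same receptor, left little trace: Cd3d, Cd3e, Cd3g, Cd4, Cd8a and Cd8b1 had group means of at most 0.308 CPM. The 8 T cell markers summed to 31.8 to 33.9 CPM in the input, 14.2 to 19.2 in the IgG and 22.9 to 25.3 in the p-UPF1 libraries, mostly from Thy1. Of the 7 myeloid markers, which summed to 142 to 154 CPM in input and 60.5 to 62.1 in p-UPF1 libraries, Adgre1 and Cd68 carried nearly all, while Lyz2 and Csf1r were near 0. NK cell markers did not exceed 3.73 CPM in sum in any library, and plasma cell markers summed to 18.8 to 28.3 CPM with Tnfrsf17 at 0.

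To ask which RNAs of the pathway were recovered by p-UPF1, the p-UPF1 libraries were set against both backgrounds, IgG and input. Il4ra stood apart from the other 9 genes. Its level in the p-UPF1 precipitate was 6.59-fold that in IgG and 5.62-fold that in input, whereas the RNA of its partner chain, Il2rg, fell to 0.425 of the IgG level and 0.323 of the input level. Socs1 fell to a similar degree as Il2rg, Socs3 rose to 6.34 CPM from 2.88 in IgG and 3.16 in input, and Jak1, Jak3, Stat6 and Cish moved by less. Over IgG, 6 of the 10 genes were higher in p-UPF1 and 4 lower by edgeR's quasi-likelihood test (Benjamini-Hochberg adjusted P under 0.05, adjusted over all tested genes), where 40.4% of all tested genes were higher and 42.2% lower. Over input, 5 were higher, 4 lower and 1 not called, against 40.8% and 42.6% of all genes. The pathway did not move as a block. The median log2 fold change of its genes was 0.39 over IgG and 0.12 over input, beside -0.03 for all genes in both comparisons. In 5 of the genes (Il4ra, Stat6, Socs3, Cish, Il4i1) every p-UPF1 library lay above all IgG and input libraries, as in 37.0% of all genes, and in 4 (Il2rg, Jak1, Jak3, Socs1) every p-UPF1 library lay below them, as in 37.6%. These directions are relative to the bulk of the RNA, and they flip for Il2rg, Jak1, Jak3 and Socs1 when libraries are scaled to equal mitochondrially encoded mRNA. That scaling lifted the median of all genes to 4.66 over IgG and 5.00 over input, and these 4 genes remained below it, at 3.02 to 4.54 over IgG and 3.41 to 4.69 over input.

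The study defined p-UPF1-bound RNAs by 2 minimum log2 fold changes, 1 against IgG and 2 against input, both at an adjusted P under 0.05. Of all tested genes, 22.2% met the first criterion, 6.31% the second and 6.25% (820 genes) both. Il4ra was the only pathway gene among the 820, while all 10 met both criteria with the mitochondrial scaling, as did 96.9% of all tested genes. Il13ra1 and Socs3 met the criterion over IgG but not that over input, and their log2 fold changes over IgG were as low as 0.92 and 0.98 in the other alternatives. No other pathway gene met either criterion. The p-UPF1 libraries enter both comparisons, so the 2 fold changes of a gene are not independent of each other.

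**Figure D1:**
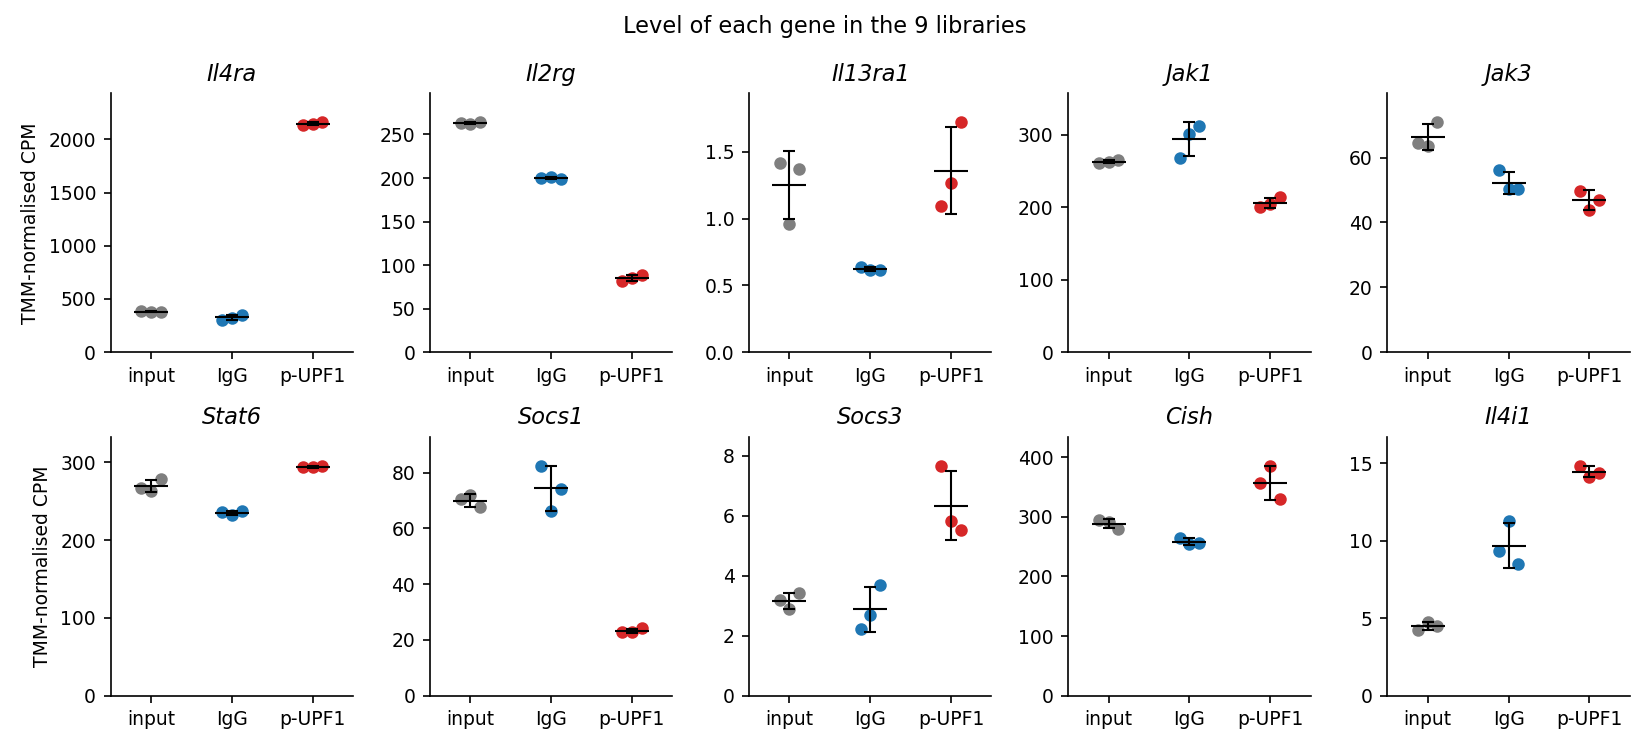
TMM-normalised CPM of the 10 genes (y axis, linear and from 0, its own scale per gene) in the input (grey), IgG (blue) and p-UPF1 (red) libraries. Each point is a library, horizontal lines are group means and bars are SD of 3 libraries. Il4ra reached 2137 to 2160 CPM in p-UPF1 against 305 to 384 CPM in the other 6 libraries, and Il2rg and Socs1 were lowest in p-UPF1 on this scale, a direction that flips with scaling to mitochondrially encoded mRNA.

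Il4ra (NCBI Gene 16190, chr7:125552271-125579474, plus strand, GRCm38) encodes IL-4Rα, the chain shared by both receptor types. It had 380 to 384 CPM in the input libraries, 305, 322 and 350 CPM in IgG libraries A, B and C, and 2137, 2142 and 2160 CPM in the p-UPF1 libraries. The p-UPF1 libraries lay within a narrow band several times above all others, and the IgG libraries lay below every input library. The log2 fold change was 2.72 ± 0.05 (SE) over IgG and 2.49 ± 0.05 over input, with edgeR quasi-likelihood adjusted P of 1.49e-17 and 2.35e-17. On rank by CPM, Il4ra moved from place 421 in input and 479 in IgG to place 19 of 13129 in p-UPF1, where it took 0.204% of all counts. Among the 820 p-UPF1-bound RNAs it was 16th by CPM but 232nd by its fold change over IgG, so it combined high abundance with an enrichment that many bound RNAs exceeded. No annotated gene overlapped it, and it stayed p-UPF1-bound in each alternative of scaling, tool, filter, threshold and library left out, with log2 fold changes of 2.56 to 2.78 over IgG and 2.42 to 2.62 over input apart from the mitochondrial scaling.

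Il4ra was also the only one of the 10 genes with a transcript that GENCODE M21 annotates as an NMD substrate. This transcript, Il4ra-205 (3696 nt as annotated, against 5256 nt for the full-length Il4ra-201, so that they also differ elsewhere), holds an exon of 114 nt that Il4ra-201 lacks, at chr7:125571934-125572047 (GRCm38, plus strand), between the exon that ends at 125571590 and the exon that starts at 125572851. Mice make a soluble, secreted form of IL-4Rα from such an alternatively spliced mRNA, which ends before the membrane-spanning part. The run of 30 bases across the junction is shown for both transcripts, 10 bases before and 20 after it, because the extra exon brings in the early stop codon, set in capitals.
Il4ra-205: tggtacaacccaagtaatgaaaatctgTGA
Il4ra-201: tggtacaaccacttccagctgcccctgata
The stop codon ends 20 bases into the extra exon, which leaves a coding sequence of 693 nt in Il4ra-205 against 2433 nt in Il4ra-201. Of its 12 exons, 4 junctions follow this stop, the last of them 323 nt downstream, well past the 50 nt that the usual rule for NMD asks. The deposited counts are sums over all transcripts of a gene, so which of the transcripts was recovered with p-UPF1 was not tested. Annotation of such a transcript was common: 29.36% of the tested protein-coding genes had one, and 5.82% of those were p-UPF1-bound, against 6.564% of the genes with none.

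Il2rg (NCBI Gene 16186, chrX:101264385-101268255, minus strand) encodes the common γ chain, which IL-4Rα needs in the type I receptor and which the receptors for IL-2, IL-7, IL-9, IL-15 and IL-21 share. Its level was 262 to 264 CPM in the input libraries, 199 to 202 in the IgG libraries and 81.4, 85.5 and 88.5 in the p-UPF1 libraries. The 3 groups did not overlap, and the p-UPF1 libraries were the lowest. The log2 fold change was -1.23 ± 0.04 (SE) over IgG and -1.63 ± 0.04 over input, with edgeR quasi-likelihood adjusted P of 4.34e-14 and 1.01e-15. A log2 fold change of -1 or below was called in 21.9% of all genes against IgG and in 24.5% against input.

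Il13ra1 (NCBI Gene 16164, chrX:36112108-36171262, plus strand) encodes the second chain of the type II receptor and was scarce in these cells. It had 35, 19 and 27 reads in input libraries A, B and C, 12 in each IgG library, and 26, 28 and 38 in the p-UPF1 libraries. In CPM the p-UPF1 libraries (1.10 to 1.72) overlapped the input libraries (0.959 to 1.42), and both lay above the IgG libraries (0.612 to 0.638). The log2 fold change was 1.12 ± 0.33 (SE) over IgG, with an edgeR quasi-likelihood adjusted P of 5.09e-03. Over input it was 0.11 ± 0.29 (adjusted P = 0.732 in edgeR's quasi-likelihood test), a difference not detectable at this depth, and its sign turned without input library B (-0.04) or without p-UPF1 library C (-0.09).

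The kinases lay a little below both backgrounds. Jak1 (NCBI Gene 16451, chr4:101151974-101265282, minus strand), which binds IL-4Rα, had 261 to 265 CPM in the input libraries, 268, 302 and 312 CPM in the IgG libraries and 200, 204 and 214 CPM in the p-UPF1 libraries. Every p-UPF1 library was below every library of the other groups, at a log2 fold change over IgG of -0.51 ± 0.05 (SE) and over input of -0.35 ± 0.05 (edgeR quasi-likelihood adjusted P of 8.21e-08 and 7.63e-06). Jak3 (NCBI Gene 16453, chr8:71676383-71690577, plus strand), the kinase bound to the common γ chain, had 64.5, 63.6 and 70.9 CPM in the input libraries, 56.2, 50.3 and 50.3 in the IgG libraries and 49.8, 43.7 and 47.0 in p-UPF1 libraries A, B and C. The highest p-UPF1 library came within 1 CPM of the lowest IgG libraries, while the input libraries lay well above both groups. The log2 fold change of Jak3 was -0.50 ± 0.06 (SE) over input (edgeR quasi-likelihood adjusted P = 1.84e-06) and -0.16 ± 0.07 over IgG (adjusted P = 0.0378). The call over IgG was lost in 10 of 22 alternatives. Among them were the fits without input library A (adjusted P = 0.0531 in edgeR's quasi-likelihood test), input library B (0.0645), IgG library A (0.142), p-UPF1 library B (0.186) and p-UPF1 library C (0.0800). Jak3 shares 406 of its 4085 exonic bases with Insl3 on the same strand, and Jak1 overlaps Raver2 by 397 bases on the opposite strand, so reads in those stretches are of uncertain origin.

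Stat6 (NCBI Gene 20852, chr10:127642955-127660987, plus strand) encodes the transcription factor that the receptor activates. It had 266, 264 and 278 CPM in the input libraries, 233 to 237 in the IgG libraries and 294 to 296 in the p-UPF1 libraries. The groups did not overlap, but their means differed by no more than 1.25-fold. The p-UPF1 libraries were close to one another (a coefficient of variation of 0.373%), and the small difference passed the test, at a log2 fold change over IgG of 0.32 ± 0.04 (SE) and over input of 0.13 ± 0.04 (edgeR quasi-likelihood adjusted P of 4.96e-07 and 4.26e-03). With upper-quartile scaling the value over input was 0.06 and not called (adjusted P = 0.133 in edgeR's quasi-likelihood test). Its level in the p-UPF1 precipitate was thus near that in the lysate. On the opposite strand, 70 of its 3805 exonic bases overlap Nab2 and 187 overlap the long noncoding RNA gene Gm30989, so reads in those stretches are of uncertain origin as well.

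The inhibitors parted. Socs1 (NCBI Gene 12703, chr16:10783808-10785536, minus strand), which binds and blocks the JAK kinases, had 70.4, 71.9 and 67.5 CPM in the input libraries, 82.5, 66.3 and 74.2 in the IgG libraries and 22.8, 22.9 and 24.2 in the p-UPF1 libraries. The p-UPF1 libraries held 0.314 of the IgG level with little spread, while input and IgG overlapped. Its log2 fold change was -1.67 ± 0.07 (SE) over IgG and -1.59 ± 0.07 over input (edgeR quasi-likelihood adjusted P of 1.38e-12 and 2.38e-12), the lowest of the 10 genes over IgG.

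Socs3 (NCBI Gene 12702, chr11:117966079-117970336, minus strand), which is better known as the inhibitor of IL-6-type receptors, was scarce. It had 3.20, 2.88 and 3.41 CPM in the input libraries, 2.23, 2.70 and 3.69 in the IgG libraries and 7.67, 5.82 and 5.53 in the p-UPF1 libraries, from 42 to 182 reads a library. The p-UPF1 libraries lay above all others in spite of a wide spread. The log2 fold change was 1.14 ± 0.20 (SE) over IgG and 1.003 ± 0.19 over input (edgeR quasi-likelihood adjusted P of 5.17e-05 and 1.38e-04). Cish (NCBI Gene 12700, chr9:107296659-107302784, plus strand), a STAT5-induced inhibitor of cytokine receptors, was the most abundant of the 3 inhibitors, with 295, 291 and 280 CPM in the input libraries, 265, 254 and 257 in the IgG libraries and 356, 386 and 329 in the p-UPF1 libraries. It differed modestly between groups that did not overlap, with a log2 fold change over IgG of 0.47 ± 0.05 (SE) and over input of 0.31 ± 0.05 (edgeR quasi-likelihood adjusted P of 2.60e-07 and 3.17e-05).

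Il4i1 (NCBI Gene 14204, chr7:44836288-44840809, plus strand) encodes a secreted L-amino acid oxidase that IL-4 induces in B cells. Its level was 4.22, 4.74 and 4.48 CPM in the input libraries, 9.30, 11.3 and 8.47 in the IgG libraries and 14.8, 14.1 and 14.4 in the p-UPF1 libraries. The 3 groups formed a ladder without overlap, with the IgG libraries between the others. The log2 fold change of p-UPF1 was 1.69 ± 0.12 (SE) over input but only 0.58 ± 0.11 over IgG (edgeR quasi-likelihood adjusted P of 9.67e-10 and 1.43e-04), and IgG itself stood 1.11 ± 0.13 above input. The counts of Il4i1 are uncertain, since 1979 of its 2047 exonic bases are shared with Il4i1b on the same strand and 34 overlap Tbc1d17 on the other, and how the authors' counting dealt with reads in 2 genes is not given in the sources used here.

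**Figure D2:**
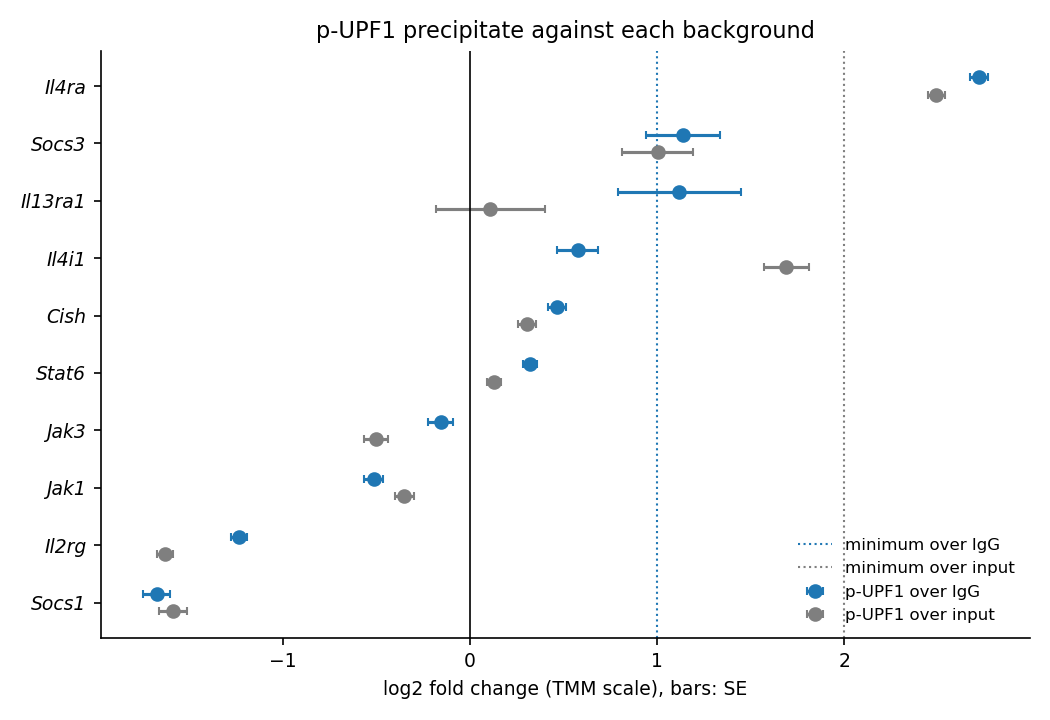
Log2 fold change of each gene in p-UPF1 over IgG (blue) and over input (grey) on the TMM scale, with bars of 1 SE and dotted lines at the study's minimum for each comparison (1 over IgG, 2 over input). Il4ra, at 2.72 and 2.49, is the only gene past both lines, and Il2rg and Socs1 lie between -1.23 and -1.67, a sign that flips with scaling to mitochondrially encoded mRNA.

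**Figure D3:**
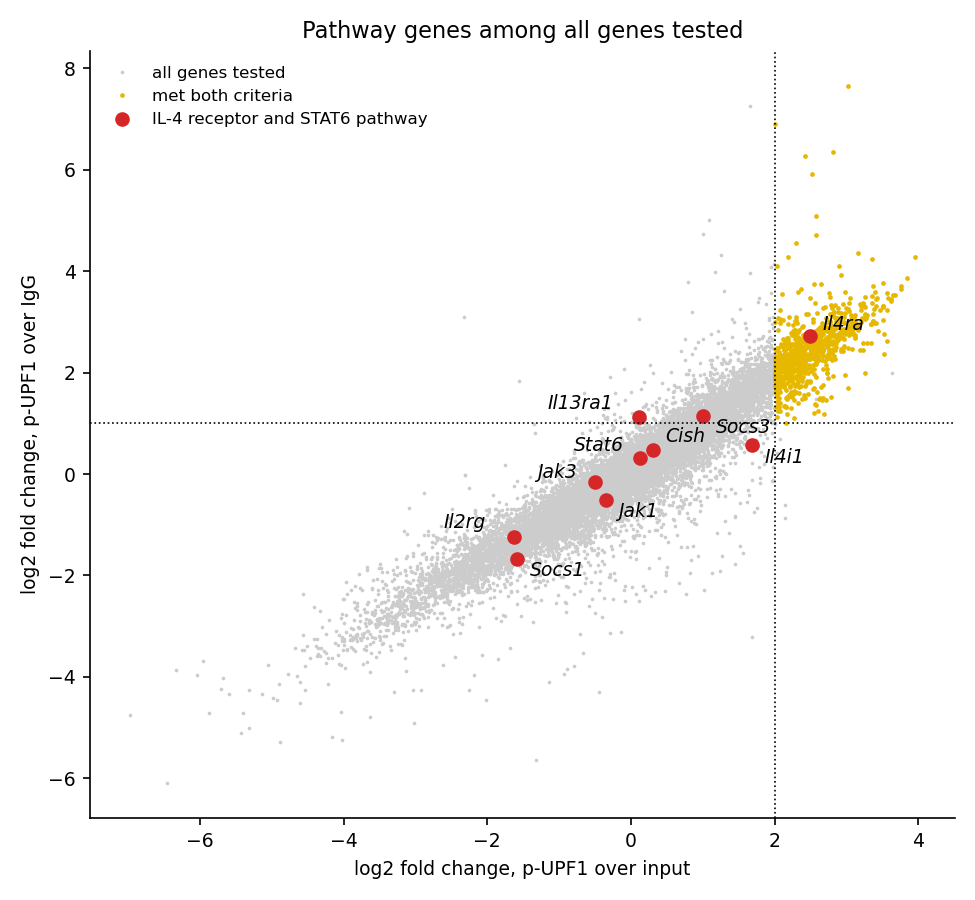
Log2 fold change of p-UPF1 over input (x axis) against p-UPF1 over IgG (y axis) for all 13129 genes tested (grey), the 820 p-UPF1-bound RNAs (yellow) and the 10 pathway genes (red), with dotted lines at the study's minima. Both axes share the p-UPF1 libraries, so the diagonal spread of points is not evidence of its own; Il4i1 and Il13ra1 lie farther from the diagonal than the other pathway genes.

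The IgG precipitate was compared with input to see what the beads and a nonspecific antibody recovered. By edgeR's quasi-likelihood test (Benjamini-Hochberg adjusted P under 0.05), 2 of the 10 genes were higher in IgG than in input and 6 lower, against 18.2% and 34.7% of all genes. Il4i1 was the higher one by far, with a log2 fold change of 1.11 that ranked 247th of 13129. Jak1 was higher by 0.16, a call lost without any one input library (adjusted P of 0.0508 to 0.0652 in edgeR's quasi-likelihood test), without IgG library B (0.0617) or without IgG library C (0.0973). Il13ra1 was lower by the most, at -1.01 ± 0.33 (SE), a value from 12 reads per IgG library, and its call was lost without input library A (adjusted P = 0.0779 in edgeR's quasi-likelihood test) or C (0.0630). Il2rg (-0.39), Jak3 (-0.34) and Il4ra (-0.23) were called lower in each of 22 alternatives that test for any difference, but not with the mitochondrial scaling, where Il4ra turned to 0.12 and the other 2 were at -0.05 and -0.0014. Stat6 (-0.19) and Cish (-0.16) were lower as well, calls lost in 5 and 9 of 22 alternatives. Socs1 (0.09) and Socs3 (-0.14) were not called. Socs1 was called higher in 6 of the 22 alternatives, with a log2 fold change of up to 0.20 (adjusted P = 0.0217 in edgeR's quasi-likelihood test) when scaled by library size alone and of 0.16 (adjusted P = 0.0300) without IgG library B. Il4ra was thus below input in the IgG precipitate and far above it in the p-UPF1 precipitate.

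Ratios of 2 genes within a library do not depend on how libraries are scaled, so they were used to describe the balance of the pathway. For each Il2rg read there were 1.45 Il4ra reads in input, 1.63 in the IgG libraries and 25.2 in the p-UPF1 libraries, a log2 ratio of 0.54 ± 0.01, 0.70 ± 0.10 and 4.66 ± 0.05 (SD, n = 3). The p-UPF1 libraries lay between 4.61 and 4.71 and no other library was above 0.82. The log2 ratio of Stat6 to Il4ra was -0.50 in input and -0.47 in IgG, where the libraries overlapped, and -2.87 to -2.86 in the p-UPF1 libraries. Per Il4ra read, the input libraries held 0.706 Stat6 reads, the IgG libraries 0.724 and the p-UPF1 libraries 0.137. Among the inhibitors, Socs1 outnumbered Socs3 by 22.0-fold in input, 26.1-fold in IgG and 3.70-fold in p-UPF1. Cish outnumbered Socs1 by 4.13-fold, 3.49-fold and 15.3-fold in the same order. Against input the kinase ratio Jak3 to Jak1 moved least of the 9 ratios, from -1.99 in input to -2.14 in p-UPF1, where the libraries overlapped, with IgG lower at -2.49. In total 9 ratios were compared in 3 contrasts. In an exact permutation test (two-sided) 3 libraries against 3 cannot give a p below 0.1, which becomes 0.123 after Benjamini-Hochberg adjustment over the 27 comparisons, so no ratio could pass a threshold of 0.05. This smallest value was reached by all ratios named here in p-UPF1 against either background, except Jak3 to Jak1 against input (exact p = 0.3, adjusted 0.338).

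**Figure D4:**
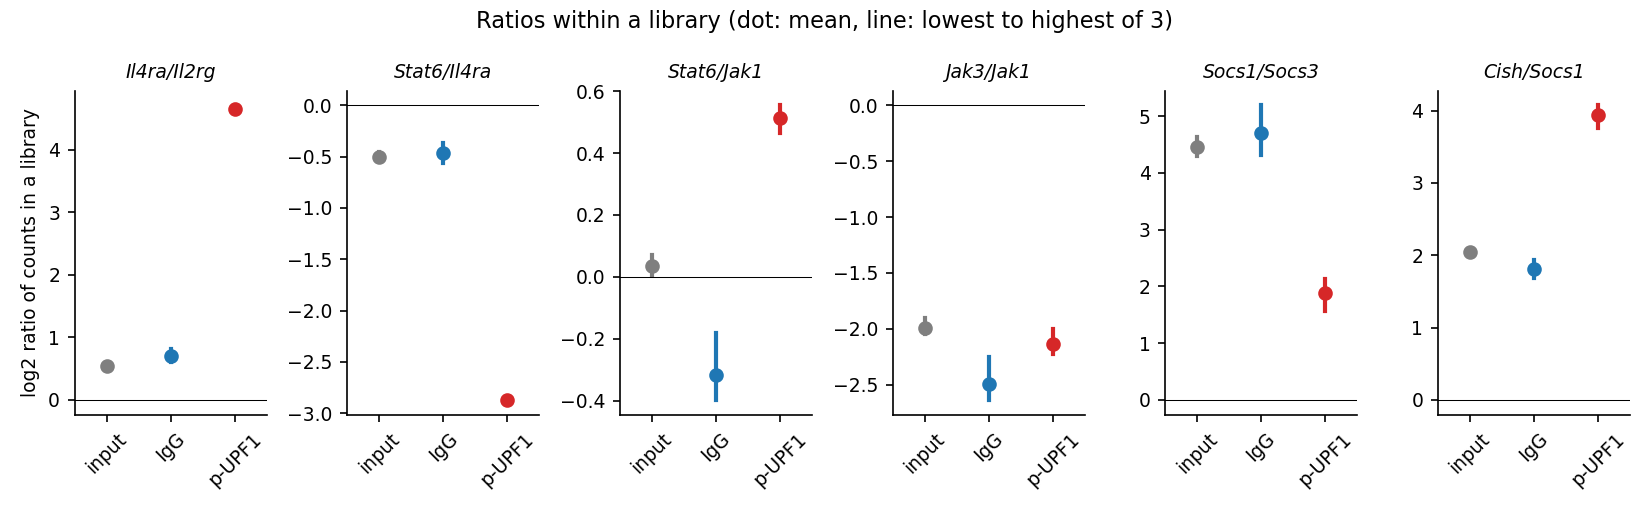
Log2 ratio of the read counts of 2 genes within the same library (y axis, its own scale per panel) in input (grey), IgG (blue) and p-UPF1 (red). Dots are means and lines run from the lowest to the highest of 3 libraries. The ratio of Il4ra to Il2rg is 4.66 in p-UPF1 against 0.70 in IgG and 0.54 in input, and that of Socs1 to Socs3 is 1.89 against 4.70 and 4.46.

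Per kilobase of annotated exon, which allows genes to be compared with each other, the order of the pathway genes changed between lysate and precipitate. In input Il2rg was first with 158 ± 0.54 CPM per kb (SD, n = 3), followed by Cish with 95.8 ± 2.7, Il4ra with 73.1 ± 0.36 and Stat6 with 70.8 ± 2.0. Only Il4ra and Stat6 overlapped among neighbours in that order, which went on with Socs1 (52.2), Jak1 (49.6), Jak3 (16.2), Il4i1 (2.19), Socs3 (1.16) and Il13ra1 (0.337). In IgG the order was the same but for Jak1 and Socs1, both at 55.5 CPM per kb, whose libraries overlapped. In p-UPF1 Il4ra led with 411 ± 2.3 CPM per kb, ahead of Cish with 118 ± 9.4, Stat6 with 77.4 ± 0.29 and Il2rg with 51.2 ± 2.2, and no neighbours overlapped down to Il13ra1 at 0.366. The place of Socs1 depends on the annotation, which gives it 1340 exonic bases in RefSeq and 2908 in its GENCODE transcript.

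Features of the mRNAs that had no part in the choice of genes were then described. Across 11871 tested genes with a protein-coding transcript, the log2 fold change over IgG correlated weakly with 3′ UTR length (Spearman's rho = 0.32), 3′ UTR GC content (0.31, over 11775 genes) and transcript length (0.28), and less with coding length (0.13). In IgG over input the rho was 0.12 with 3′ UTR length, -0.07 with 3′ UTR GC content, 0.31 with transcript length and 0.35 with coding length. Genes are not independent replicates, these features are related to one another, and the values are descriptive. In 4 groups of nearly equal size, ordered by 3′ UTR length, the median log2 fold change was -0.73, -0.02, 0.43 and 0.36 from shortest to longest, and 1.97%, 3.67%, 10.1% and 9.65% of genes were p-UPF1-bound. Il4ra (2420 nt) and Il13ra1 (2353 nt) have 3′ UTRs in the longest of these groups, and Il2rg (474 nt) and Jak3 (419 nt) have short ones. Il4i1 has the shortest (104 nt) and was yet higher in p-UPF1, and Socs1, with 1993 nt in GENCODE, was the lowest of all 10 over IgG. RefSeq gives Socs1 1340 exonic bases, and beside a coding sequence of 639 nt these leave a 3′ UTR below the 1029 nt at which the third group starts, so its place in this order depends on the annotation. Socs3 (1474 nt), Jak1 (1128 nt), Cish (1087 nt) and Stat6 (976 nt) lie near the middle of the range. With 10 genes the order by 3′ UTR length and the order by enrichment can only be set side by side.

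**Figure D5:**
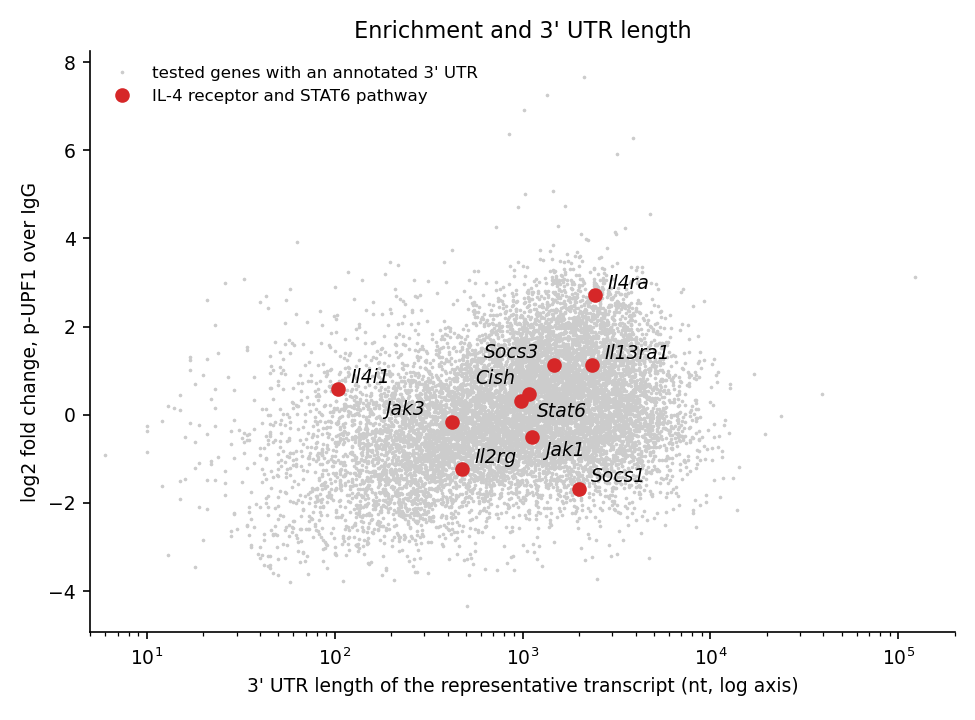
Length of the 3′ UTR of the representative transcript (x axis, nt, log scale) against log2 fold change of p-UPF1 over IgG (y axis) for tested genes with an annotated 3′ UTR (grey) and the 10 pathway genes (red). Il4ra and Socs1 have GENCODE 3′ UTRs of 2420 and 1993 nt and lie at 2.72 and -1.67; the 3′ UTR of Socs1 is shorter in RefSeq.

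The letters ATTTA, the core of AU-rich elements that decay factors of the ZFP36 family bind, were searched on the transcript strand of the 3′ UTRs, overlaps counted. They occur in 4 of the 10 genes: 5 times in Il13ra1, 4 times each in Jak1 and Socs3 and 3 times in Cish. Of 11771 3′ UTRs of tested genes 67.43% hold at least 1. Windows of 30 bases are shown for these 4 genes (GRCm38, on the gene's strand, motif in capitals), because 2 of them (Socs3, Cish) are inhibitors that were higher in p-UPF1, while Jak1 was lower with the same letters present.
Il13ra1, chrX:36168941-36168970, plus strand: gaccctgtgaagATTTAttgcattctccat
Jak1, chr4:101153463-101153492, minus strand: agcatgaacaacATTTAaattcccATTTAt
Socs3, chr11:117966138-117966167, minus strand: ctttgcacatatATTTAtATTTAtactcag
Cish, chr9:107301373-107301402, plus strand: cagttatacagtATTTATTTATTTAttctc
The window of Cish holds 3 overlapping copies, and those of Socs3 and Jak1 hold 2 each. Il4ra and Socs1 have no ATTTA in 3′ UTRs of a length at which 93.09% and 90.74% of genes have one (lengths within 20% of their own, which for Socs1 holds for the GENCODE length alone). Over IgG, Il4ra and Socs1 lay at opposite ends of the enrichment of the 10 genes. Across genes, the number of ATTTA had a rho of 0.08 with the log2 fold change over IgG and of 0.14 with that of IgG over input.

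Relatives and partners of the pathway were counted from lists of named genes. Of 8 other receptor chains, 6 belong to receptors that hold the common γ chain (Il2ra, Il2rb, Il7r, Il9r, Il15ra and Il21r), Crlf2 joins Il7r in the receptor for TSLP, and Il13ra2 binds IL-13 without the common γ chain. Il13ra2 had no count in any library and the other 7 were tested. Over IgG, 5 were higher, 1 lower and 1 not called, where 40.4% of all tested genes were higher, 42.2% lower and 6.25% p-UPF1-bound, and the median log2 fold change was 0.34 beside -0.03 for all genes. Over input, 3 were higher, 2 lower and 2 not called, against 40.8% and 42.6% of all genes, and the median was -0.07, of the opposite sign. Il9r, the chain for IL-9, was p-UPF1-bound, with 90.1 to 96.5 CPM in the input libraries, 111 to 132 in the IgG libraries and 536 to 548 in the p-UPF1 libraries, which gave 2.15 ± 0.05 (SE) over IgG and 2.53 ± 0.05 over input, with 60 exonic bases in overlap with a pseudogene (Gm12109) on the opposite strand. Il15ra rose by 1.60 over IgG, Crlf2 fell by 0.38, and Il21r was at 0.02 over IgG and not called, while it was lower than input (-0.18, adjusted P = 1.03e-03 in edgeR's quasi-likelihood test).

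Of 7 other JAK and STAT genes (Jak2, Tyk2, Stat2, Stat3, Stat4, Stat5a and Stat5b), 6 were higher over IgG and over input and 1 lower (all genes 40.4% higher and 42.2% lower over IgG, 40.8% and 42.6% over input), and the median log2 fold change was 1.06 over IgG and 1.35 over input, beside -0.03 for all genes in both. Stat2, which acts in the type I interferon response, was p-UPF1-bound with 3.24 ± 0.05 (SE) over IgG and 3.56 ± 0.05 over input, from 56.1 to 58.6 CPM in input to 667 to 685 CPM in p-UPF1. It shares 220 of 4476 exonic bases with Apof on the same strand. Stat5a rose by 1.58 over IgG, and Tyk2 by 0.47, the second lowest of the list. Stat4, the mediator of IL-12 signals, fell by 1.16. The pathway genes of these families were at -0.51 (Jak1), -0.16 (Jak3) and 0.32 (Stat6) over IgG. These values lay between those of Stat4 and Tyk2, and the difference from the list was not tested.

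Of 9 other SOCS and PIAS inhibitors, 3 were higher over IgG, 5 lower and 1 not called (all genes 40.4% higher, 42.2% lower), and none was p-UPF1-bound, as 6.25% of all genes were. Over input 4 were higher and 5 lower, against 40.8% and 42.6% of all genes. Pias3 rose by 1.07 over IgG (with 179 exonic bases in overlap with Nudt17 on the opposite strand) and Socs2 by 0.73. Socs4 fell by 2.22 and Socs6 by 1.21. Socs1 and Socs4 thus were at the low end of the inhibitors and Socs3 at the high end.

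Of 11 adaptors and phosphatases that act at the receptor, 6 were higher over IgG, 4 lower and 1 not called, beside 40.4% and 42.2% of all genes. The counts over input were the same, beside 40.8% and 42.6% of all genes. Ptpn11, which encodes the phosphatase SHP-2, was p-UPF1-bound, with 164 to 169 CPM in the input libraries, 179 to 226 in the IgG libraries and 1378 to 1473 in the p-UPF1 libraries and a log2 fold change over IgG of 2.75 ± 0.07 (SE) and over input of 3.09 ± 0.07. Ptpn1, which encodes the phosphatase PTP1B, rose by 1.95 over IgG. Irs1 and Irs2, the insulin receptor substrates that link IL-4Rα to PI3 kinase, fell by 1.33 and 1.27, with 162 exonic bases of Irs2 in overlap with 9530052E02Rik on the opposite strand. Of 5 coactivators of STAT6, 2 were higher, 2 lower and 1 not called over IgG, read against the same 40.4% and 42.2%. As many were called over input, read against 40.8% and 42.6%. Parp14 rose by 1.74 over IgG and 1.98 over input, just short of the criterion of 2, Ncoa1 rose by 0.65, Ep300 fell by 0.53 and Snd1 fell by 1.04.

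Of 12 genes that IL-4 induces in B cells, 7 were higher over IgG and 5 lower, set against 40.4% and 42.2% of all genes, and none was among the 6.25% that were p-UPF1-bound. Cd86, a costimulatory ligand, rose by 1.59 and Mcl1, an inhibitor of apoptosis, by 1.40. H2-Aa and H2-Ab1, the chains of MHC class II, fell by 2.15 and 1.75 over IgG and also were lower in IgG than in input, by -0.76 and -0.70. The median log2 fold change of these 12 genes was 0.36 over IgG and 0.09 over input, beside -0.03 for all genes. Directions in the lists are on the TMM scale, relative to the bulk of the RNA, as for the pathway genes.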

How the data were processed

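RIP-seq was measured in 9 libraries (input, IgG and p-UPF1, 3 each) of wild-type mouse splenic B cells. The authors deposited raw read counts, one value per NCBI Gene identifier and library. A directional kit was used per the labels, and the submitters' processing notes name cutadapt, HISAT2, featureCounts and mm10. For the RNA-seq of progenitor B cells made with the same kit, the study's methods name unstranded HISAT2 mapping. For RIP-seq the strand setting, versions and the treatment of reads in 2 genes are not given in the sources used here, so reads of overlapping genes are of uncertain origin. Columns carry letters and the labels numbers, so columns were assigned to groups only. Symbols came from RefSeq GRCm38 (25275 identifiers) or GENCODE M21 (18), and 1886 had none. Exon lengths per kilobase are RefSeq's and UTR, coding and NMD annotations GENCODE M21's. Sequences were read from the GENCODE M21 transcripts.

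Counts were filtered with edgeR's filterByExpr (minimum count 10, minimum total 15), which kept 13129 genes with 99.95% of the counts, scaled by TMM and tested by edgeR 4.0.16 (glmQLFit, glmQLFTest, two-sided, R 4.3.3) in 1 fit of all 9 libraries with group as the only factor, 6 residual degrees of freedom and a prior count of 0.125. P-values were adjusted by Benjamini-Hochberg over all 13129 genes. SE were derived from the test statistic. Ratios used counts + 0.5 and an exact permutation test over libraries. Alternatives used limma 3.58.1 (voom), DESeq2 1.42.0 and other scalings, filters and library subsets. All 10 pathway genes were named, and from each other list the p-UPF1-bound genes and the 2 highest and 2 lowest over IgG among the tested. Some items of the lists are not reported here. The pathway genes and lists were chosen with earlier results of these data known.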

Additional observations from a re-analysis of the deposited data

How the results depend on the processing

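Of the 30 log2 fold changes of the 10 pathway genes (3 contrasts), 21 kept their direction and side of the threshold in all of 22 alternatives other than scaling to equal mitochondrially encoded mRNA, and Il4ra remained the only p-UPF1-bound pathway gene in each of those. It also did in a stricter test against the fold minimum (glmTreat), which is not among the 22: it was applied to the p-UPF1-bound call alone, and at those minima 0 of all genes were called lower and 9 higher in IgG over input. With the mitochondrial scaling, which raised the median of all genes to 4.66 (over IgG), 5.00 (over input) and 0.24 (IgG over input), 10 pathway genes were higher and 0 lower in both p-UPF1 contrasts, 10 met both criteria, and 5 were higher and 0 lower in IgG over input; of all genes 99.4% were higher in either p-UPF1 contrast, 96.9% met both criteria, and 46.6% were higher and 8.33% lower in IgG over input. The sign then turned for Il2rg (3.46 over IgG, 3.41 over input), Jak1 (4.18, 4.69), Jak3 (4.54, 4.54) and Socs1 (3.02, 3.45), and in IgG over input for Il4ra (0.12), Stat6 (0.15), Socs3 (0.21) and Cish (0.18). Which scaling is right was not tested. The scaling by library size moved the median of all genes in IgG over input from -0.10 to 0.01. In IgG over input, 3 pathway genes were lower without a filter on low counts (17.3% of all 20210 genes) and 1 was higher at an adjusted P under 0.01 (13.8% of all genes). Leaving out 1 library at a time, 1 to 2 were higher in IgG over input, against 14.3% to 19.1% of all genes. In those fits Il13ra1 over input ranged from -0.093 (without p-UPF1 library C; -0.04 without input library B) to 0.26, Socs1 in IgG over input from -0.0012 (without IgG library A) to 0.16, where it was called, and Socs3 from -0.37 to 0.0066 (without IgG library A). Over all alternatives but the mitochondrial scaling Jak3 over IgG ranged from -0.32 to -0.10. The cause was not tested. Columns are lettered and labels numbered, and neither ties libraries of different groups to a shared lysate. The column letter as a replicate block was an alternative chosen after seeing the data. It left 6 pathway genes higher and 4 lower over IgG, against 40.6% and 42.2% of all genes. Over input 5 and 4 were called, against 41% and 42.8%, and in IgG over input 2 and 6, against 18.7% and 35.4%. In this fit 1 pathway gene was bound, as were 6.26% of all genes, and no call of a pathway gene changed. Libraries of the same letter deviated from their group means with correlations of -0.005 to 0.054 across genes, and those of different letters with -0.056 to 0.022. Depth limits Il13ra1 most, with 12 to 38 reads a library.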
